A study of Rattus norvegicus with 8 samples.

Results

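Expression of 10 contractile and serum response factor (SRF) linked genes was followed in the dorsal-caudal lung of male Sprague-Dawley rats: the actins Acta1, Acta2 and Actg2, the smooth muscle genes Cnn1, Tagln, Myh11 and Des, the cofactor Fhl2, Srf itself and the receptor Pdgfrb. Every probe set whose platform symbol is one of these names was taken, which gave 15 of the 20242 probe sets on the array, for 10 of its 11217 genes with a probe set of 1 symbol. Of these, 11 probe sets, with at least 1 for each of the 10 genes, reached log2 5 on at least 2 of the 8 arrays and entered the model. The members were selected on results of these same arrays, among them the differences between ventilated and non-ventilated lungs, so their own values are given as a description. Counts of members past a threshold of the model stand only beside the same share over all probe sets.

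The rats weighed 340 to 400 g, and 2 non-ventilated animals served as controls. The other animals were anaesthetised, tracheotomised and ventilated at a high tidal volume of 18 mL/kg, 40 breaths/min and an end-expiratory pressure of 0 cmH2O, for up to 3 h, with 3 rats lying prone and 3 lying supine. The titles of the supine samples carry the abbreviation SVt where those of the prone samples carry HVt, but both groups are labelled with the high tidal volume as their condition. The labels do not say that controls were anaesthetised or tracheotomised, so these steps and ventilation cannot be told apart. Age is not given. RNA (300 ng per array) was hybridised to 1-colour Affymetrix rat arrays, and all values are GCRMA summaries on the log2 scale.

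SRF is a transcription factor that binds a short element called the CArG box, in which A and T bases are flanked by a pair of C and a pair of G. It works with 2 kinds of partner. Myocardin and the related MRTF proteins, which are held in the cytoplasm by monomeric actin, direct SRF to contractile and cytoskeletal genes, while the ternary complex factors Elk1, Elk3 and Elk4 direct it to immediate early genes after MAP kinase signalling. In the lung, contractile genes are active mainly in the smooth muscle of airways and vessels and in myofibroblasts, and Pdgfrb marks pericytes and other mural cells.

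Because the members are grouped by their link to SRF, the 250 bases upstream of each gene start were read from the RefSeq promoter table (assembly GRCr8) and searched for the CArG box, written as CC, a core of 6 bases that are each A or T, and GG. This form reads the same on both strands. The table held 8 windows for 7 members and none for Tagln, Myh11 and Pdgfrb. A CArG box was present in 4 of the 8 windows, belonging to 3 genes (Srf, Fhl2 and Acta1), against 501 of all 33469 windows (1.5%). The Srf window held 2 boxes, at 81 to 72 and 61 to 52 bases before the start, an arrangement of 2 or more boxes found in 7 windows of the table (0.0209%). Fhl2 has 2 annotated starts with 1 box each, at 58 to 49 and at 95 to 86 bases before the start. Acta1 had 1 box at 94 to 85 bases before the start and 2 further matches in which 1 core base is G or C, at 222 to 213 and 171 to 162. Acta2 had no full box but 2 matches with 1 G or C in the core, at 134 to 125 and 84 to 75, a looser form present in 2289 windows (6.84%). No match of either form lay in the windows of Actg2, Cnn1 and Des, which says only that these letters are not in these 250 bases. A match is a string of letters and not a measured binding site. The windows with matches are printed 5′ to 3′ on the strand of the gene, with the matches in capitals, because they show which members carry the element next to their start. They lie at chr9:21923826-21924075 (plus strand, Srf), chr9:52923327-52923576 and chr9:52954541-52954790 (minus strand, Fhl2), chr19:68784195-68784444 (minus strand, Acta1) and chr1:241172504-241172753 (minus strand, Acta2).
Srf: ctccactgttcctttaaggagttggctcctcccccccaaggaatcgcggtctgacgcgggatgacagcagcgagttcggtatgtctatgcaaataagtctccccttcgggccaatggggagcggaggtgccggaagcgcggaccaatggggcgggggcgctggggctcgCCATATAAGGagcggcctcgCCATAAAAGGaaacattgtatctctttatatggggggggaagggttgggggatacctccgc
Fhl2, start 1: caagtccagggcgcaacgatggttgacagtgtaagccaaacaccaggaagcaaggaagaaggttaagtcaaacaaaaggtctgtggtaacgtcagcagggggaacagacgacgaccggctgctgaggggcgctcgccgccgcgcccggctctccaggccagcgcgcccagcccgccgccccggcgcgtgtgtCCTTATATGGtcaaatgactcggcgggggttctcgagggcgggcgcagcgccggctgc
Fhl2, start 2: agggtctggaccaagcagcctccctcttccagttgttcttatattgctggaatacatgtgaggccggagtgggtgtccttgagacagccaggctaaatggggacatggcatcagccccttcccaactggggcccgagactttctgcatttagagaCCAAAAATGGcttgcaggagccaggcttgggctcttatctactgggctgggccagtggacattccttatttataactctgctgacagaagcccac
Acta1: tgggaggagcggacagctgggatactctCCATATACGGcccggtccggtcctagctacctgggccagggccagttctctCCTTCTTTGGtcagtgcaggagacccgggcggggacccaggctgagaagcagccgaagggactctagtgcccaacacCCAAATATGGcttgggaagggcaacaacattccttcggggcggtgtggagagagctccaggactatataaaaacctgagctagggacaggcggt
Acta2: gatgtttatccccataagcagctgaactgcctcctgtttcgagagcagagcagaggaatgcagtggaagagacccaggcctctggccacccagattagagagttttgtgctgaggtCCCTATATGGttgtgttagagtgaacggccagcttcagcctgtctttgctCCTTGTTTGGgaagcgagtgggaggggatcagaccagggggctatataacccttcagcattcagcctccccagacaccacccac

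The arrays carried genes of the lung, the tissue named on the label, at high levels. The surfactant gene Sftpc lay between 15.02 and 15.51 on the 8 arrays and the alveolar type 1 gene Ager between 13.29 and 14.54. Array medians lay between 7.77 and 7.95. The array of supine replicate 3 stood apart in RNA quality, with an actin control signal 9.10 log2 units higher at the 3′ end than at the 5′ end, against 3.16 to 4.64 on the others, and a GAPDH gap of 8.41 against 0.70 to 1.92. Heart muscle genes were present on a pair of arrays. Of the 10 cardiac markers on the array, 9 reached log2 5 on prone replicate 2 and 6 on supine replicate 3, against 0 to 2 elsewhere. The cardiac myosin Myh6 read 9.87 and 8.87 on these arrays and 2.69 to 2.79 on the other 6. The summed cardiac level was 6.32 and 6.42 in the controls, 7.60, 11.65 and 6.54 in prone replicates 1 to 3, and 7.64, 6.54 and 10.42 in supine replicates 1 to 3. Airway secretory genes were also high on prone replicate 2, where Scgb3a1 read 14.29, against 12.64 on supine replicate 2 and 7.93 to 9.75 on the other 6 arrays. In whole lung tissue, fewer cells of a type and less RNA per cell cannot be told apart. Values without prone replicate 2 or supine replicate 3, or without both, are therefore given beside many of the results, though not beside every one.

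Among the members, 4 genes read higher on every one of the 6 ventilated arrays than on both control arrays: Acta1, Cnn1, Fhl2 and Pdgfrb. The other 6, among them the most familiar smooth muscle markers Acta2, Tagln and Myh11, had ventilated values on both sides of the controls. Over all 16896 probe sets tested, 12.9% were higher on all 6 ventilated arrays, and 5 of the 11 member probe sets were, a count on which their selection bears.

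**Figure D1:**
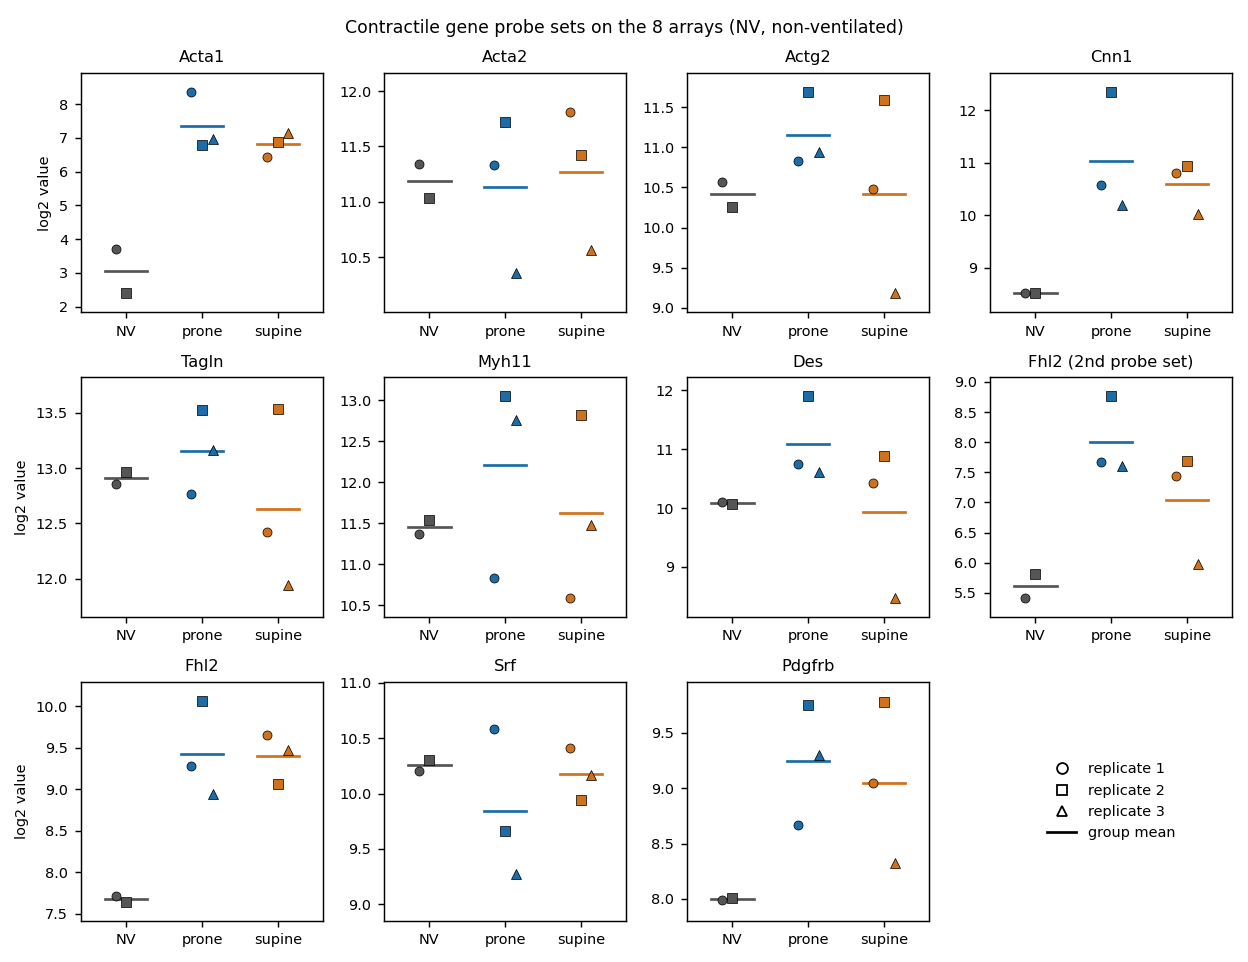
The log2 expression of the 10 member genes is plotted on each of the 8 arrays, grouped as non-ventilated (NV), prone and supine, with each point 1 array, its shape the replicate and each bar the group mean; Fhl2 has 2 panels, 1 for each probe set. Acta1, Cnn1, Fhl2 and Pdgfrb stand above both controls on all 6 ventilated arrays, while Acta2, Tagln, Myh11 and Srf overlap with the controls in both positions.

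Of the 3 actins, only Acta1 stood above the controls on all 6 ventilated arrays. Acta1 encodes skeletal muscle alpha-actin, which smooth and cardiac muscle also make in small amounts. Acta1 read 3.71 and 2.39 in the controls, 8.36, 6.78 and 6.97 in prone replicates 1 to 3, and 6.45, 6.88 and 7.16 in supine replicates 1 to 3. The groups did not overlap, and the lowest ventilated array was above both controls by more than the spread within either ventilated group. The difference from the controls was 4.32 ± 0.59 log2 units (standard error of the model, as after every ± on a difference) for prone and 3.78 ± 0.59 for supine lungs. Both control values lie at the low end of the scale, where a value cannot be separated from background, so no fold is given. Acta1 passed the filter on low values only through the ventilated arrays. Without prone replicate 2 and supine replicate 3, the arrays with the highest cardiac levels, its differences were 4.61 and 3.61. Some cardiac markers also stood above the controls on prone replicate 1, the highest array for Acta1, and on supine replicate 1. Tnnc1 read 4.70 and 5.73 there against 3.34 and 4.17 in the controls. Myl4 lay above log2 5 on both of these arrays, against 2.96 and 2.94 in the controls. Myh6 stayed at the control level, at 2.76 and 2.79 against 2.79 and 2.77. In all, 7 and 9 of the 10 cardiac markers lay above both controls on these arrays. Several of the gaps were very small and at the low end of the scale, and the counts were not set against all probe sets. On prone replicate 3 and supine replicate 2 the count was 4 of 10 each, and Acta1 read 6.97 and 6.88. The part of cardiac RNA in the Acta1 values was not tested.

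The skeletal muscle genes were represented by 4 of the 15 listed markers. Their summed level was 10.47 and 10.82 in controls, 11.16 to 11.71 in prone and 10.56 to 11.51 in supine lungs. Myh1, a skeletal myosin, made up most of that sum, at 10.38 and 10.75 in the controls and 10.50 to 11.61 on the ventilated arrays. Tnnt3, a troponin of fast skeletal muscle, read 2.83 and 2.51 in the controls and 3.89 to 6.69 on the 6 ventilated arrays. Ckm, the muscle creatine kinase, stayed between 2.22 and 2.50 except on prone replicate 2, at 5.21. In the controls the Myh1 probe set read far above those of Tnnt3 and Ckm, so the summed level mostly describes that probe set. Whether it reads Myh1 alone was not tested. The part of skeletal muscle RNA in the Acta1 values was not tested.

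Acta2, the alpha-actin of smooth muscle and myofibroblasts, read 11.34 and 11.03 in the controls, 11.33, 11.72 and 10.35 in prone replicates 1 to 3, and 11.81, 11.42 and 10.57 in supine replicates 1 to 3. The 3 groups overlapped. The differences were -0.05 ± 0.51 for prone and 0.08 ± 0.51 for supine lungs, each within its standard error, and their signs turned when single arrays were left out. Actg2, the gamma-actin of visceral smooth muscle, read 10.56 and 10.26 in the controls, 10.83, 11.69 and 10.94 in prone replicates 1 to 3, and 10.48, 11.59 and 9.18 in supine replicates 1 to 3. All prone arrays were above the controls, whereas the supine arrays held both the second highest value and the lowest value of the 8. The prone difference was 0.74 ± 0.66, and 0.48 without prone replicate 2. The supine difference of 0.00 ± 0.66 rested on single arrays: it was 0.62 without supine replicate 3 and -0.58 without supine replicate 2.

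Cnn1 encodes calponin, which binds actin and slows the myosin motor in smooth muscle. Cnn1 read 8.52 and 8.51 in the controls, 10.58, 12.34 and 10.19 in prone replicates 1 to 3, and 10.81, 10.94 and 10.01 in supine replicates 1 to 3. The lowest ventilated array stood above the controls by more than the range of the supine group and by less than that of the prone group, in which replicate 2 stood highest. Group means were 8.51 ± 0.01 (SD, n = 2), 11.04 ± 1.15 (SD, n = 3) and 10.59 ± 0.50 (SD, n = 3). The differences were 2.52 ± 0.64 log2 units (5.74-fold) for prone and 2.07 ± 0.64 (4.20-fold) for supine lungs. Without prone replicate 2 and supine replicate 3, the arrays with cardiac genes, they were 1.87 and 2.36.

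Tagln, or SM22, is an actin-binding protein often used beside Cnn1 as a smooth muscle marker. Tagln read 12.85 and 12.96 in the controls, 12.77, 13.53 and 13.16 in prone replicates 1 to 3, and 12.42, 13.53 and 11.94 in supine replicates 1 to 3. Both ventilated groups lay on both sides of the controls. The differences were 0.24 ± 0.49 for prone and -0.27 ± 0.49 for supine lungs, and became 0.06 without prone replicate 2 and 0.07 without supine replicate 3. Myh11, the heavy chain of smooth muscle myosin, read 11.36 and 11.54 in the controls, 10.83, 13.05 and 12.75 in prone replicates 1 to 3, and 10.59, 12.82 and 11.48 in supine replicates 1 to 3. Replicate 1 of each position lay below the controls and replicate 2 above them. The differences of 0.76 ± 0.81 and 0.18 ± 0.81 were smaller than their standard errors; the prone value was 1.45 without replicate 1 and 0.34 without replicate 2, and the supine value 0.69 and -0.42. A second Myh11 probe set stayed between 2.48 and 4.11 and was not tested.

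Des encodes desmin, the intermediate filament of muscle cells. Des read 10.10 and 10.06 in the controls, 10.75, 11.90 and 10.61 in prone replicates 1 to 3, and 10.42, 10.88 and 8.48 in supine replicates 1 to 3. All prone arrays and 2 of the 3 supine arrays were above the controls, while supine replicate 3, the array with the large 3′ to 5′ gap, was the lowest of the 8. The prone difference was 1.01 ± 0.73, and 0.60 without prone replicate 2. The supine difference was -0.15 ± 0.73, and 0.57 without supine replicate 3.

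Fhl2 is a LIM domain protein that binds SRF and is itself a target of it in muscle cells. The Fhl2 probe set with the higher mean read 7.72 and 7.65 in the controls, 9.28, 10.07 and 8.95 in prone replicates 1 to 3, and 9.66, 9.06 and 9.48 in supine replicates 1 to 3. All ventilated values lay above the controls, and prone and supine values overlapped. The differences were 1.75 ± 0.39 (3.36-fold) for prone and 1.72 ± 0.39 (3.28-fold) for supine lungs, and 1.43 and 1.68 without prone replicate 2 and supine replicate 3. The second Fhl2 probe set read 5.42 and 5.81 in the controls, 7.67, 8.76 and 7.60 in prone replicates 1 to 3, and 7.44, 7.69 and 5.97 in supine replicates 1 to 3. It also stood above the controls on all 6 ventilated arrays, with differences of 2.39 ± 0.59 and 1.42 ± 0.59. The pair parted on supine replicate 3, which was near the controls on the second probe set and within the ventilated range on the first.

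Srf read 10.20 and 10.31 in the controls, 10.59, 9.66 and 9.28 in prone replicates 1 to 3, and 10.42, 9.94 and 10.17 in supine replicates 1 to 3. Replicate 1 of each position was above the controls and the other 4 ventilated arrays were below them. The differences were -0.41 ± 0.42 and -0.08 ± 0.42. Leaving out prone replicate 1 gave a prone value of -0.79, leaving out prone replicate 3 gave -0.13, and the supine value was 0.04 without supine replicate 2. The 2 other Srf probe sets lay between 3.52 and 5.42 and between 2.10 and 3.96, and were not tested.

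Pdgfrb, the receptor through which platelet-derived growth factor acts on mural cells, read 7.99 and 8.01 in the controls, 8.67, 9.75 and 9.30 in prone replicates 1 to 3, and 9.04, 9.77 and 8.33 in supine replicates 1 to 3. All 6 ventilated arrays were above the controls, with replicate 2 of each position highest. The differences were 1.24 ± 0.49 (2.37-fold) for prone and 1.05 ± 0.49 (2.07-fold) for supine lungs. The values were 0.99 without prone replicate 2 and 1.41 without supine replicate 3, and the supine value was 0.69 without supine replicate 2. A second Pdgfrb probe set between 2.24 and 3.74 was not tested. The summed level of 10 pericyte markers was 14.01 and 14.13 in the controls, 13.51 to 14.48 in prone and 13.63 to 14.65 in supine lungs. Postn, which lay between 12.89 and 14.23, made up most of that sum. The median level of the 10 markers was 9.06 and 9.21 in the controls and lower on all 6 ventilated arrays, at 7.98 to 8.80. Of the 9 pericyte markers tested, 4 were higher in prone and 5 in supine lungs, with median differences of -0.07 and 0.05. At an unadjusted p under 0.05 in limma, 3 were lower in prone lungs (Higd1b, Cox4i2 and Ndufa4l2). Over all probe sets, 17.7% were past that threshold in either direction. Of the 9 markers, 0 passed the adjusted threshold. The part of pericyte RNA in the Pdgfrb values was not tested.

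**Figure D2:**
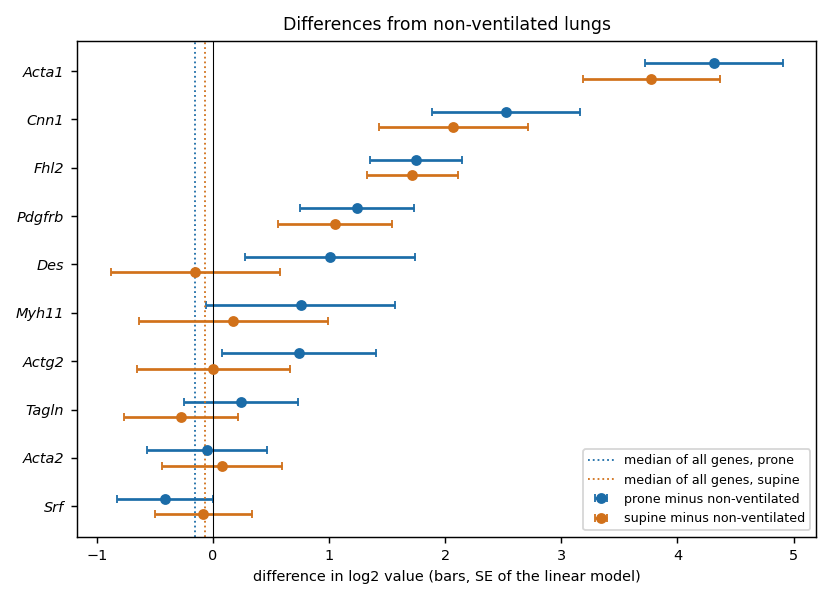
The log2 difference from the non-ventilated mean is plotted for each member gene in prone and supine lungs, with bars of 1 standard error from the model and dotted lines at the medians of all genes (-0.15 and -0.07). The largest differences in both positions are those of Acta1 (4.32 and 3.78), Cnn1 (2.52 and 2.07), Fhl2 (1.75 and 1.72) and Pdgfrb (1.24 and 1.05). The bar of Pdgfrb overlaps with bars of the remaining members, such as Des in prone lungs (1.01 ± 0.73). Several of the remaining members lie within 1 standard error of 0.

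The members spread widely around the level of all genes. The median member difference between prone and non-ventilated lungs was 0.88 log2 units (range -0.41 to 4.32), with 8 of 10 members higher, against a median of -0.15 and 41.2% higher over all 10240 genes. The median member difference for supine lungs was 0.13 (range -0.27 to 3.78), with 7 of 10 higher, against -0.07 and 46% over all genes. The supine median depended on few arrays. It was 0.02 without supine replicate 2, 0.60 without supine replicate 3, 0.33 without supine replicate 1, 0.19 without non-ventilated replicate 1 and 0.41 with the replicate number as a block. For prone lungs the median fell to 0.54 when prone replicate 2 was left out and reached 1.31 when prone replicate 1 was. Since both comparisons use the same 2 controls, their values are given side by side and their likeness is not counted as a result.

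As a description, 0 of the members lay past a Benjamini-Hochberg adjusted p of 0.05 in limma, with 0 of 10 genes in prone and 0 of 10 in supine lungs, against 0.0533% of all probe sets tested in each comparison. At an unadjusted p under 0.05, 4 members were past the threshold in prone lungs (Acta1, Cnn1, Fhl2 and Pdgfrb), against 17.7% of all probe sets in either direction, and 3 in supine lungs (the same without Pdgfrb), against 15.2%. All of these were higher. The prone arrays lay wholly above the controls for 6 members, adding Actg2 and Des, against 20.9% of all probe sets, and the supine arrays for 4, against 20.0%. Nothing is read from these counts, since the members were picked with these differences known. An exact permutation test of 3 arrays against 2 cannot give a p below 0.1.

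Direct comparison of the positions separated none of the members. Supine minus prone differences ran from -1.16 ± 0.65 for Des to 0.33 ± 0.37 for Srf, with -0.54 ± 0.53 for Acta1, -0.45 ± 0.57 for Cnn1, -0.03 ± 0.35 for Fhl2 and -0.19 ± 0.44 for Pdgfrb. Single arrays moved these values widely. Without prone replicate 2, Cnn1 stood at 0.20 and Fhl2 at 0.29. Without supine replicate 3, Des stood at -0.44 and Pdgfrb at 0.17. Acta1 stood at -0.04 without prone replicate 1, and Fhl2 at -0.50 with its 2 probe sets averaged. The member median was -0.48, with 8 of 10 lower in supine lungs, against 0.07 and 57.2% higher over all genes. Without prone replicate 2 the median was -0.05, without supine replicate 3 it was -0.14, without supine replicate 1 it was -0.27, and without both prone replicate 2 and supine replicate 3 it was 0.20. In this comparison 0% of all probe sets passed the adjusted threshold, 4.09% had an unadjusted p under 0.05 and 5.89% did not overlap between positions. The corresponding counts among the members were 0, 0 and 0 of 10. These counts do not show that the positions are alike, and the standard errors of 0.35 to 0.73 leave differences of that size unresolved.

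The spread among ventilated lungs had a shape shared by several members. Prone replicate 2 was the highest of the 8 arrays for 5 members (Actg2, Cnn1, Myh11, Des and Fhl2), and supine replicate 2 for Tagln and Pdgfrb. Supine replicate 3 was the lowest array for Actg2, Tagln and Des. Centred on the control mean, the median member stood at 0.01 and -0.01 in the controls, 0.55, 1.67 and 0.90 in prone replicates 1 to 3, and 0.48, 1.27 and -0.03 in supine replicates 1 to 3. Cardiac markers were high on prone replicate 2 and supine replicate 3, the highest and the lowest ventilated arrays for the median member. Supine replicate 3 was also the array with the large 3′ to 5′ gap, and the part of RNA quality in its member values was not tested. The median level of the 5 airway markers was 13.71 on prone replicate 2 and 11.38 on supine replicate 2, against 7.93 to 10.61 on the others. Those 2 arrays were also the highest for the median member. The part of cardiac or airway RNA in the member values was not tested.

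**Figure D3:**
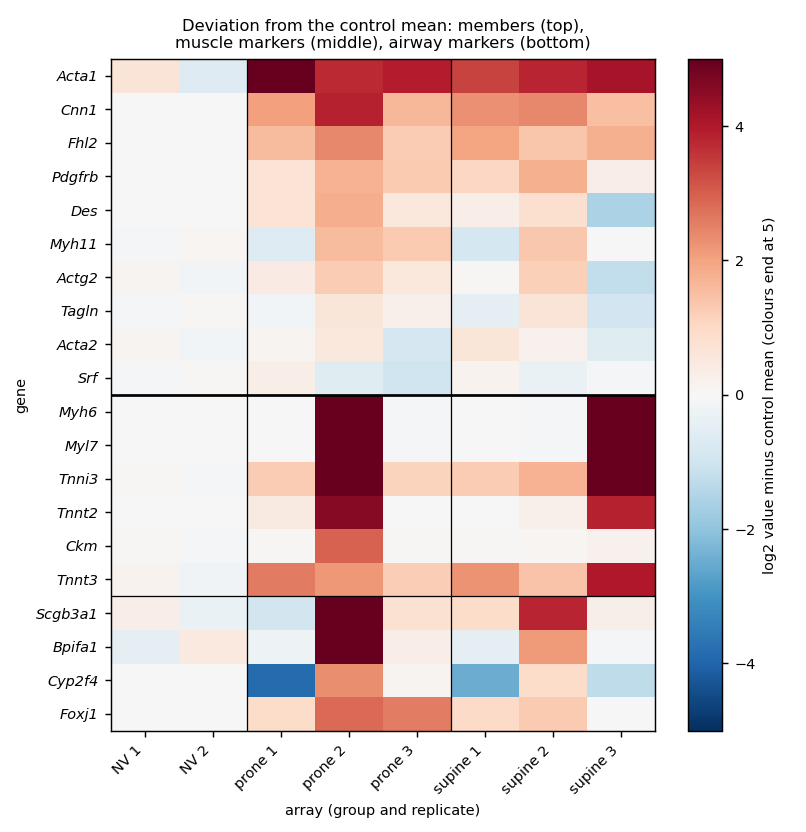
Each cell shows the log2 difference of 1 array from the non-ventilated mean, for the 10 members (top), muscle markers (middle) and airway markers (bottom), with NV for non-ventilated and the colour scale ending at 5. Actg2, Des and Tagln are low on supine replicate 3, while Acta1, Cnn1, Fhl2 and Pdgfrb are above the controls on all 6 ventilated arrays.

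Other genes of the pathway were read from lists of SRF regulators, smooth muscle genes, cytoskeletal targets, immediate early targets and PDGF genes. Of 64 such genes tested in limma, 0 passed an adjusted p of 0.05 in any comparison, and the smallest adjusted p was 0.129 in prone, 0.256 in supine and 0.942 in supine against prone lungs. At an unadjusted p under 0.05, 6 were higher and 3 lower in prone lungs (14.1% of the list genes), 2 higher and 4 lower in supine lungs (9.38%), and 0 higher and 6 lower in supine against prone lungs (9.38%). The first and second shares are below the 17.7% and 15.2% of all probe sets, and the third is above 4.09%.

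The 23 other smooth muscle contractile genes had median differences of 0.01 in prone and 0.09 in supine lungs, with 12 of 23 higher in each. Over all genes the medians were -0.15 and -0.07, with 41.2% and 46% higher. None of the 23 was higher at an unadjusted p under 0.05 and 1 was lower. That gene was Ppp1r14a, which encodes an inhibitor of myosin phosphatase. Ppp1r14a read 11.99 and 12.28 in the controls, 8.37, 10.98 and 10.68 in prone, and 9.75, 11.21 and 9.22 in supine replicates 1 to 3. All 6 ventilated arrays were lower, by -2.13 ± 0.87 (adjusted p = 0.262, limma) and -2.08 ± 0.87 (adjusted p = 0.318). The prone value was -1.31 without prone replicate 1. Kcnma1, a calcium-activated potassium channel, had the largest positive difference of the list at 1.51 ± 1.29 in prone and 0.81 ± 1.29 in supine lungs, followed by Pln, the regulator of the calcium pump, at 0.83 ± 0.87 and 0.76 ± 0.87. The prone values rested on prone replicate 2, without which Kcnma1 stood at 0.48 and Pln at 0.08. Without supine replicate 3 the supine values were 0.11 and 0.47. In the controls Kcnma1 read 4.76 and 5.29 and Pln 5.31 and 4.91, close to the level of the filter, so the size of these differences is uncertain. Nexn, an actin filament protein, stood at -1.07 ± 1.11 and -1.12 ± 1.11. Nexn read 6.86 and 6.78 on prone and supine replicate 1, against at least 9.20 on the other 6 arrays, and its differences were -0.16 without prone replicate 1 and -0.19 without supine replicate 1.

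Among 14 regulators of SRF tested, the median difference was -0.41 in prone and -0.38 in supine lungs, against -0.15 and -0.07 over all genes. Of the 14, 3 were higher in each position, against 41.2% and 46% of all genes. Myocd, the muscle-restricted SRF cofactor, was the only one higher at an unadjusted p under 0.05, in prone lungs. Myocd read 5.24 and 5.29 in the controls, 5.67, 6.45 and 6.80 in prone, and 5.63, 6.36 and 6.04 in supine replicates 1 to 3. It stood above the controls on all 6 ventilated arrays, close to the level of the filter, with differences of 1.04 ± 0.40 (adjusted p = 0.243, limma) and 0.74 ± 0.40 (adjusted p = 0.408). Klf4, a repressor of smooth muscle genes, stood at -1.01 ± 0.31 (adjusted p = 0.17, limma) and -0.98 ± 0.31 (adjusted p = 0.258), and Gata6, a transcription factor of smooth muscle and lung epithelium, at -1.21 ± 0.91 and -2.07 ± 0.91, the latter -1.35 without supine replicate 3.

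The 17 cytoskeletal targets had medians of -0.17 in prone and -0.31 in supine lungs, with 4 and 5 higher. Over all genes the medians were -0.15 and -0.07, with 41.2% and 46% higher. Actn1, a cross-linker of actin filaments, stood at 0.32 ± 0.29 and 0.26 ± 0.29, and Myh10, a non-muscle myosin, at -1.27 ± 0.74 and -1.16 ± 0.74, or -0.74 without prone replicate 1 and -0.48 without supine replicate 1. Ankrd1, a stretch-linked muscle ankyrin protein, stood at -1.19 ± 0.41 in supine lungs (adjusted p = 0.274, limma).

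The 8 immediate early targets had the largest median of the lists in prone lungs, 1.41, with 7 of 8 higher and 4 past an unadjusted p of 0.05, against 0.26 and 4 of 8 higher in supine lungs. Over all genes, 41.2% were higher in prone and 46% in supine lungs, and 17.7% of all probe sets were past that threshold in prone lungs. The list was chosen with earlier results of these data known, so its counts are a description. The supine median was 0.83 (5 of 8 higher) without non-ventilated replicate 1, 0.0023 without non-ventilated replicate 2, 0.60 (6 of 8) without supine replicate 2 and 0.08 without supine replicate 3. Egr1, a zinc finger transcription factor, read 11.73 and 10.32 in the controls, 14.12, 13.90 and 14.35 in prone, and 12.87, 11.03 and 13.72 in supine replicates 1 to 3. The prone arrays stood above the controls and the supine arrays overlapped with them. Nr4a1, a nuclear receptor of the early response, read 10.25 and 7.75 in the controls, 12.13, 12.38 and 11.82 in prone, and 8.70, 7.74 and 9.84 in supine replicates 1 to 3. Its prone difference was 3.11 ± 0.82 (adjusted p = 0.137, limma) and its supine difference -0.24 ± 0.82. The controls were far apart, and the prone value was 4.37 without non-ventilated replicate 1 and 1.86 without non-ventilated replicate 2, the supine value 1.02 and -1.49. Fosb, a partner of Jun proteins, stood at 4.58 ± 1.29 (adjusted p = 0.151, limma) and 1.72 ± 1.29. Both control values lie below the filter level, so the size of these differences is uncertain. The supine arrays read 5.96, 4.31 and 8.59 in replicates 1 to 3, and the supine value was 0.57 without replicate 3. In supine against prone lungs all 8 genes were lower, with a median of -1.76 and 4 past an unadjusted p of 0.05. In that comparison 57.2% of all genes were higher, and 4.09% of all probe sets were past the threshold in either direction. Nr4a1 stood at -3.35 ± 0.73 and Fosb at -2.86 ± 1.15, both with an adjusted p of 0.942. Without prone replicate 1, 6 of the 8 were lower, and without supine replicate 2, 7 of 8 with a median of -0.93.

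Of the PDGF genes, 2 besides Pdgfrb were tested. Pdgfra, the receptor typical of lung fibroblasts, read 11.85 and 12.41 in the controls, 13.59, 13.24 and 13.48 in prone, and 13.10, 12.86 and 13.63 in supine replicates 1 to 3. It stood above the controls on all 6 ventilated arrays, by 1.31 ± 0.34 (adjusted p = 0.137, limma) and 1.07 ± 0.34 (adjusted p = 0.26). Pdgfa, a ligand, stood at -0.76 ± 0.47 and -1.01 ± 0.47.

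**Figure D4:**
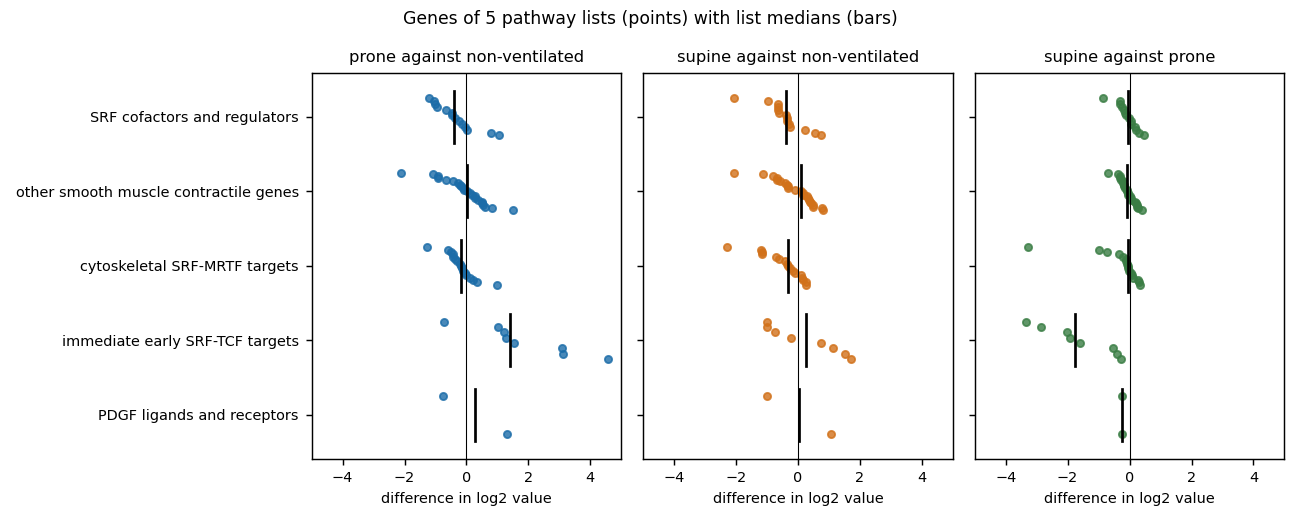
The log2 difference from the non-ventilated mean is plotted for prone and supine lungs, and from the prone mean for supine lungs, with each point 1 tested gene of a pathway list and each bar the list median. The medians of the 23 other smooth muscle genes lie near 0 (0.01 and 0.09 against controls), while that of the 8 immediate early genes is 1.41 in prone lungs and -1.76 in supine against prone lungs.

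The genes whose pattern over the 8 arrays was most like the mean of the members were named by Pearson correlation among 5732 genes with an SD of at least 0.5. They were Trim37 (r = 0.958), Dgkd (0.948), Hspb7 (0.919), Tardbp (0.914) and Csnk1e (0.907). Hspb7, a small heat shock protein of muscle, read 5.68 and 5.55 in the controls, 5.68 on supine replicate 3 and up to 8.68 on the other ventilated arrays. Des and Actg2 were below the controls on that supine array. For Cnn1 alone the nearest genes were Trim37 (0.946), Pttg1 (0.934), Niban1 (0.929), Dgkd (0.924) and Kctd15 (0.914). These r values describe 8 arrays in 3 groups that share their normalization, and they were the highest of many compared.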

How the data were processed

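Dorsal-caudal lung RNA from 8 rats (2 non-ventilated, 3 prone, 3 supine) was measured on Affymetrix arrays. The values the authors deposited are log2, and GCRMA and Partek 6.5 are named per the submitters' processing notes; a filter or centring step before deposit is not given in these sources. No detection calls were used. GEO's platform annotation supplied the symbols, and all 15 member probe sets matched RefSeq gene identifiers with 0 changed symbols.

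After 28 control probe sets were set aside, 16896 of 20214 at log2 5 or above on at least 2 arrays were fitted with limma 3.58.1 in R 4.3.3 (1 mean per group, 8 arrays, 5 residual and 2.51 prior degrees of freedom, two-sided, Benjamini-Hochberg adjustment over all probe sets). P-values set a difference of group means against the spread between animals within the groups, as moderated by limma. The probe set with the highest mean stood for a gene. The method was tested on simulated data. The number of arrays limits the precision.

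The members and the 15 gene lists were chosen with earlier results of these data known. Besides the members, the 2 highest and 2 lowest genes of each function list in each comparison could be named, up to 4 in the text, and the 5 genes nearest in pattern to the members and to Cnn1. Marker genes are named only beside a result. Marker lists gave 1 adjusted call, the mesothelial gene Bnc1, lower in both positions (adjusted p = 0.0172 and 0.0164, limma). Bnc1 passed the filter only through the 2 control arrays, at 6.88 and 6.60. It read 2.69 to 3.11 on the 6 ventilated arrays, at the low end of the scale, so the size of these differences is uncertain.

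Same-numbered arrays deviated together from their group means (correlations of 0.109 to 0.721 over all 7 pairs). This is the only source of the pairing, since the labels do not state one. Deviations within a group sum to 0, and those of the 2 controls mirror each other. The 7 correlations are therefore not independent. Prone replicate 3 correlated more with supine replicate 2 (0.404) than with supine replicate 3 (0.196). Alternatives changed the filter, scaling, normalization, model and probe set rule, blocked on the replicate number, and left out arrays. Leaving out 2 arrays together was chosen after seeing the data.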

Additional observations from a re-analysis of the deposited data

Results flagged for a closer look

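Ccn1, a matricellular protein and SRF target of the cytoskeletal list, was picked out because all prone arrays lay above the control mean and all supine arrays below it. Ccn1 read 9.76 and 10.31 in the controls, 11.18, 10.98 and 10.89 in prone replicates 1 to 3, and 8.75, 8.33 and 6.13 in supine replicates 1 to 3. The differences from the controls were 0.98 ± 0.72 and -2.30 ± 0.72. The difference between the positions was -3.28 ± 0.65 in limma and did not pass the threshold (adjusted p = 0.942). It was -2.48 without supine replicate 3, the array with the large 3′ to 5′ gap, and lay between -3.79 and -2.48 when 1 array was left out.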

How the results depend on the processing

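Each result was recomputed under 18 alternatives. The median member difference ranged from 0.54 to 1.31 in prone and from 0.02 to 0.60 in supine lungs, the ends coming from leaving out 1 array. For supine against prone it ranged from -0.59 to -0.05 when 1 array was left out and was 0.20 without prone replicate 2 and supine replicate 3, the only median to turn its sign; the cause was not tested. With the replicate block the medians were 1.26, 0.41 and -0.48, and the count of list genes past the threshold stayed at 0. The mesothelial gene Bnc1 lost its calls with the block (adjusted p = 0.0819 and 0.13, limma); it kept the prone call without prone replicate 1 or any supine array, kept the supine call without supine replicate 2, lost them without any other ventilated array, and was under the filter without either control array. The count of list genes past an adjusted p of 0.05 was 0 in all 3 comparisons and 18 alternatives; a filter of log2 7 left 61 of the 64 list genes. Of 540 single member values under alternatives, 237 equalled the reported value, many because the alternative leaves that difference as it is. Of the other 303, 6 moved past the spread between replicates, and 33 turned their sign. Signal over background limits Acta1, whose control values are at the low end of the scale.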
